A study of Homo sapiens and Mus musculus with 12 samples.

Results

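The NOTCH receptor genes NOTCH1, NOTCH2, NOTCH3 and NOTCH4, and NOTCH2NL, a human gene that is a partial copy of NOTCH2, were followed across 12 RNA-seq libraries of cortical organoids. They were chosen by name: 5 of the 60675 gene rows of the human count table, and in mouse the 4 rows of Notch1 to Notch4, found by gene description among 47729 gene rows, together with 1 row for the introduced human NOTCH2NL in the table of normalized values. All 5 human rows and all 5 mouse rows were found. Of these, NOTCH1 to NOTCH4 and Notch1 to Notch4 passed the filter on low counts and were tested, and NOTCH2NL was not.

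Cortical organoids are stem cell aggregates that develop features of the embryonic cerebral cortex in culture. Human organoids were grown from H9, an established human embryonic stem cell line, with the genotype labelled NOTCH2NL knockout (KO) or WT, and were taken at week 4 (day 28) in pools of 5 to 10 organoids. Per the study's design text, both the KO and the control line were made from H9 with CRISPR/Cas9. The KO pools all carry 1 line code and the WT pools all carry another, so genotype and line cannot be told apart. Both codes, that of WT included, contain the letters del, and the sources used here do not say what they stand for. The mouse organoids came from 46C, an established mouse embryonic stem cell line, as a stable line carrying the NOTCH2NL-Sh_T197I complementary DNA (N2NL) or as a stable line with the empty vector (EV), and were taken at day 6 in pools of 16 organoids. The sources used here do not name the promoter that drives the transgene, and vector and line cannot be told apart either. Each of the 4 groups had 3 libraries. Whether pools of the same group were grown as separate cultures is not labelled, so p-values here measure only pool-to-pool spread, which may be technical.

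NOTCH receptors are single-pass membrane proteins that bind ligands of the Delta and Jagged families on neighbouring cells. Binding exposes the receptor to cleavage by an ADAM protease and then by gamma-secretase, and the freed intracellular part enters the nucleus, where with RBPJ and Mastermind proteins it activates HES and HEY genes. In the developing cortex this signal keeps radial glia, the neural stem cells, from becoming neurons. NOTCH2NL encodes a short protein made from the amino-terminal part of NOTCH2, without the membrane-spanning and intracellular parts.

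Total counts per library lay between 15381409 and 16382938 in human and between 16781742 and 20960391 in mouse. Levels below are CPM, the counts of a gene relative to the library's total, after scaling of the libraries by TMM factors, given per library in the order of replicates 1 to 3 or as mean ± SD of 3 libraries. Of the marker lists used to check the tissue, radial glia markers summed to 3560 to 4548 CPM in KO and 4446 to 4744 CPM in WT. The largest part of that sum was VIM (2389 ± 262 CPM in KO, 2938 ± 192 CPM in WT), so the sum mainly follows VIM. No marker of that list or of the cortical list was under 1 CPM. In day 6 mouse organoids pluripotency markers summed to 579 to 645 CPM in N2NL and 524 to 573 CPM in EV. Endothelial markers, from cells in which NOTCH1 and NOTCH4 are strongly used, summed to 9.95 to 12.2 CPM in KO and 4.6 to 13.4 CPM in WT, with 5 of 8 under 1 CPM. In mouse they summed to 263 to 380 CPM in N2NL and 320 to 406 CPM in EV. Of these sums Cdh5 made up 207 ± 59.3 CPM in N2NL and 248 ± 58.3 CPM in EV. Pecam1 came next (47.4 ± 3.41 CPM in N2NL, 48.0 ± 4.92 CPM in EV). The lowest were Erg (2.69 ± 0.157 CPM in N2NL, 2.69 ± 0.679 CPM in EV) and Tek (2.74 ± 0.653 CPM in N2NL, 2.72 ± 0.322 CPM in EV).

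NOTCH2NL is named in the genotype labels of the human lines and in the label of the mouse line, so it is given first. The group labels do not say which NOTCH2NL copy was edited or introduced. The gene of the human NOTCH2NL row lies at chromosome 1, 146146203 to 146229026, on the minus strand of GRCh38. GENCODE 29 names it NOTCH2NLA (ENSG00000264343). NOTCH2 (ENSG00000134250) lies on the same chromosome at 119911553 to 120069626, also on the minus strand. The sequences below show how closely the copy follows the receptor gene, which bears on every read count of the pair. The GENCODE 29 transcript NOTCH2NLA-201 aligned with NOTCH2-201 over 970 bases, of which 10 differed, an identity of 99%. The aligned part made up 51.8% of NOTCH2NLA-201 and 8.52% of NOTCH2-201. A stretch of 90 coding bases from the aligned part was chosen because no other such stretch without a gap differed at more bases. It covers bases 473 to 562 of NOTCH2-201 and 498 to 587 of NOTCH2NLA-201 and holds 2 differences, in capitals. Counted from position 1 at the first base of the stretch, with the NOTCH2 base first, they are A60G and C90T.

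NOTCH2-201: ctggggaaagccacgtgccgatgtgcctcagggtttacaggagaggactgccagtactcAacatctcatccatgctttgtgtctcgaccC

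NOTCH2NLA-201: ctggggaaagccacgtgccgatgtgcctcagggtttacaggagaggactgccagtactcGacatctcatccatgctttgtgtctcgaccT

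The resemblance continued upstream of the gene. The 250 bases before the annotated start of NOTCH2 (RefSeq, GRCh38.p14, chr1:120069663-120069912, minus strand) and of NOTCH2NLA (chr1:146229022-146229271, minus strand) were identical over the 235 bases in which they overlap when aligned, so no base is in capitals.

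NOTCH2 upstream: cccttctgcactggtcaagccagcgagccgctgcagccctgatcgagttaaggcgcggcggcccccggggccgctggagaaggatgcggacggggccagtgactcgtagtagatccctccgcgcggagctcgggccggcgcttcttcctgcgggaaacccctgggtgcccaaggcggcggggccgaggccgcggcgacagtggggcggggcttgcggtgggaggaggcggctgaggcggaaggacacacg

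NOTCH2NLA upstream: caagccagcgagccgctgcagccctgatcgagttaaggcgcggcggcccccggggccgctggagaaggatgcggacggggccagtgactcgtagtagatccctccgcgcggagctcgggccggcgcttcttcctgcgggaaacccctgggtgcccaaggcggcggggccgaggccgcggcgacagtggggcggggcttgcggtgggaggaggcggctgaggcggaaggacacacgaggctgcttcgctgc

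The 250 bases upstream of 3 further copies, NOTCH2NLB, NOTCH2NLR and NOTCH2NLC, aligned with those of NOTCH2 over 218, 218 and 216 bases. NOTCH2NLC had 1 differing base, and NOTCH2NLB and NOTCH2NLR had 0. NOTCH2NLR and NOTCH2NLC had 1 gap each. A second annotated start of NOTCH2NLB did not align, with 2 bases. The letters GTGGGAA, the core recognised by RBPJ, were searched on both strands in these upstream windows and in those of NOTCH1, NOTCH3 and NOTCH4, and gave 0 matches in each. Of 35116 RefSeq promoter windows of the same length, 5.43% held them.

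Reads that fall in a run shared with another gene can be counted for neither gene or for the wrong one. Of the 1775 windows of 100 bases in NOTCH2NLA-201, 1338 (75.4%) were also present in a transcript of another gene, chiefly NBPF19, AC239799.1 and NBPF14. For the longer transcript NOTCH2NLA-203 the share was 71.8%. For NOTCH2-201 it was 1.82%, and for NOTCH1-201, NOTCH3-201 and NOTCH4-201 it was 0. In addition, 15.06% of the exon bases of NOTCH2NL overlap AC239799.1 on the same strand. NOTCH2NL counts are therefore uncertain, and those of the receptors much less so.

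**Figure D1:**
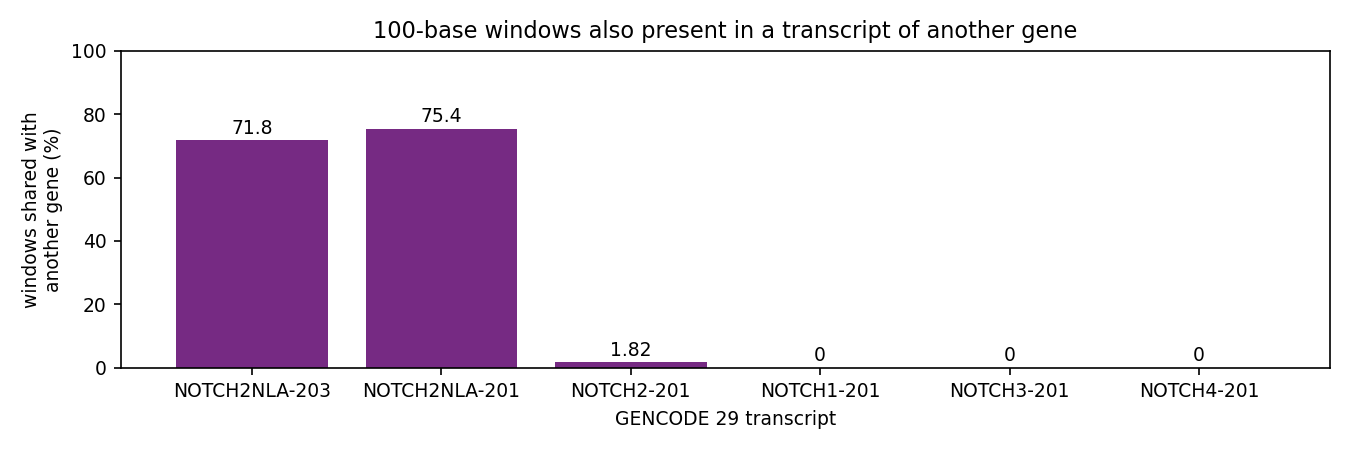
Share of all 100-base windows of a transcript, in percent, that also occur in a transcript of another gene, for NOTCH2NL (named NOTCH2NLA in GENCODE 29) and for the receptor genes. The NOTCH2NL transcripts stand at 71.8% and 75.4%, NOTCH2 at 1.82% and the other receptors at 0.

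In the human libraries the NOTCH2NL row had 0, 0 and 0 counts in KO, against 4, 5 and 3 counts in WT. Its gene identifier is that of NOTCH2NLA alone. The groups did not overlap, but the gene was close to the limit of detection in WT as well. The 12 counts summed over WT have an exact Poisson 95% interval of 6.2 to 21.0, which is 0.256 CPM with bounds of 0.132 and 0.447 CPM. A sum of 0 counts in KO allows up to 3 counts over the group, or 0.0632 CPM, so the KO level was at least 4.05-fold lower than the WT estimate. With the lower bound of the WT interval in place of the estimate, the ratio was 2.09. Interval and limit cover counting error only. In WT the NOTCH2NL counts were 0.19% of the 6306 counts of NOTCH2. The authors' deposited table gives NOTCH2NL a log2 fold change of -0.25 with a standard error of 0.14 and no adjusted p. That model estimate is not comparable with the ratios above, which come from summed counts. NOTCH2P1, a NOTCH2 pseudogene in the same table, had 0 counts in all 6 human libraries.

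In the mouse libraries the introduced NOTCH2NL was read from the authors' normalized values, which are counts divided by a size factor and rounded. It stood at 801, 709 and 740 in N2NL, against 0, 0 and 0 in EV. All N2NL libraries held it at like levels, with a mean of 750.0 ± 46.8, and no EV library did. With size factors recovered from other genes, the values correspond to about 850, 634 and 667 reads in N2NL. Against 3 counts over the EV group, the N2NL mean was at least 796-fold higher. Mouse Notch2 stood at 2637, 2893 and 2815 in N2NL and at 2287, 2256 and 2274 in EV on the same scale. These values are not divided by length, so they do not rank the transgene against Notch2.

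NOTCH1 and NOTCH3 were lower in KO than in WT organoids, and NOTCH2 and NOTCH4 did not pass the test. Among the 4 receptor genes tested, 2 were called lower and 0 higher (edgeR quasi-likelihood test, Benjamini-Hochberg adjusted p under 0.05), where 5.5% of the 16956 genes tested were called, 3.19% lower and 2.31% higher. The excess of lower calls depends on the scaling: with library size alone, 455 genes were lower and 454 higher. The groups did not overlap for 2 of the 4 genes, and for 28.8% of all genes tested. In these bulk libraries, fewer cells that express a gene and less RNA per cell cannot be told apart.

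NOTCH1 (ENSG00000148400; GRCh38 chromosome 9, 136494433 to 136545786, minus strand) encodes the receptor best known for maintaining cortical radial glia. It stood at 184, 178 and 170 CPM in KO, against 266, 212 and 221 CPM in WT. Every KO library lay below every WT library, and WT replicate 1 was the highest of all. The means were 177 ± 6.98 CPM in KO and 233 ± 29 CPM in WT, a log2 fold change of -0.39 ± 0.10 (approximate SE; edgeR adjusted p = 0.0456). The mean fell by 23.9%. With 5 libraries the call was kept only without WT replicate 2 (adjusted p = 0.0455). It was lost without KO replicate 1, 2 or 3 (adjusted p = 0.143, 0.113 and 0.132) and without WT replicate 1 or 3 (0.0584 and 0.119), with log2 fold changes from -0.45 to -0.29 over the 6 fits.

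NOTCH3 (ENSG00000074181; chromosome 19, 15159038 to 15200981, minus strand) encodes a receptor of neural progenitors that is also used by the mural cells around blood vessels. It stood at 132, 131 and 121 CPM in KO, against 165, 158 and 166 CPM in WT. The groups did not overlap, and the WT libraries differed little among themselves. The means were 128 ± 6.07 CPM in KO and 163 ± 4.10 CPM in WT, a log2 fold change of -0.34 ± 0.08 (edgeR adjusted p = 0.0321). The mean fell by 21.0%. With 5 libraries the call was kept only without WT replicate 1 (adjusted p = 0.0359). It was lost without KO replicate 1, 2 or 3 (adjusted p = 0.127, 0.075 and 0.115) and without WT replicate 2 or 3 (0.0608 and 0.131), with log2 fold changes from -0.36 to -0.30.

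Markers of cell types were read in the same fit, and calls went in both directions. Of 7 cortical markers, 1 was called, namely SIX3, which encodes a forebrain and eye transcription factor and was higher in KO (31.2 ± 6.12 CPM in KO, 7.66 ± 1.43 CPM in WT; log2 fold change 2.03 ± 0.19, edgeR adjusted p = 0.000309). Of 8 radial glia markers, 0 were called and 5 had a log2 fold change above 0. At an unadjusted p under 0.05 there were 3, where 22.8% of all genes tested passed. SLC1A3 was higher in KO (198.5 ± 38.3 CPM in KO, 90.4 ± 27.7 CPM in WT; log2 fold change 1.14 ± 0.26, edgeR adjusted p = 0.066). PROM1 was also higher (log2 fold change 0.45 ± 0.13, edgeR adjusted p = 0.0827), and VIM was lower (-0.30 ± 0.10, edgeR adjusted p = 0.121). Of 8 neuron markers, 4 had a log2 fold change above 0 and 2 were called lower. These were the neuronal tubulin TUBB3 (18.3 ± 1.48 CPM in KO, 26.4 ± 1.45 CPM in WT; edgeR adjusted p = 0.0316) and the microtubule-binding protein gene MAPT (313 ± 13.1 CPM in KO, 404 ± 35.6 CPM in WT; edgeR adjusted p = 0.0404). TUBB3 stood far below DCX (1069 ± 219 CPM in KO, 1013 ± 129 CPM in WT), and of the 8 only RBFOX3 was lower. Whether TUBB3 exons overlap those of other genes was not examined.

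Mural cell markers, 7 of 8 matched, summed to 66.3 to 121 CPM in KO and 70.5 to 97.9 CPM in WT, and so overlapped. Of the 6 tested, 4 had a log2 fold change above 0 and 1 was called, namely PDGFRB, a growth factor receptor of mural cells and mesenchyme, which was higher in KO (26.5 ± 9.09 CPM in KO, 12.1 ± 2.4 CPM in WT; edgeR adjusted p = 0.0402). CSPG4, a proteoglycan of mural cells, stood at 0.526 ± 0.0623 CPM in KO and 1.34 ± 0.207 CPM in WT (edgeR adjusted p = 0.065). Neural crest and mesenchyme markers summed to 12.9 to 16.8 CPM in KO and 11.3 to 17.4 CPM in WT. Of the 5 tested, 1 was called, namely the matrix proteoglycan LUM, which was lower in KO (0.377 ± 0.0971 CPM in KO, 1.58 ± 0.295 CPM in WT; edgeR adjusted p = 0.0181). The part of these markers in the receptor results was not tested.

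NOTCH2, the receptor gene from which NOTCH2NL was copied, stood at 149, 177 and 126 CPM in KO, against 150, 123 and 131 CPM in WT. The groups overlapped, and the spread within KO was wide, with a coefficient of variation of 17% in KO and 10.3% in WT. The means were 151 ± 25.7 CPM in KO and 135 ± 13.8 CPM in WT (edgeR log2 fold change 0.16 ± 0.13, adjusted p = 0.491). The log2 fold change was 0.03 without KO replicate 2 and 0.28 without KO replicate 3, and the fits without another library lay between these. Adding the NOTCH2NL counts to those of NOTCH2 left the log2 fold change at 0.16 (edgeR adjusted p = 0.499).

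NOTCH4 (ENSG00000204301; chromosome 6, 32194843 to 32224067, minus strand), a receptor gene known chiefly from endothelium, was the least abundant receptor gene. It stood at 4.55, 5.72 and 6.79 CPM in KO, against 5.18, 5.91 and 6.44 CPM in WT, from 70 to 111 counts in KO libraries and 80 to 97 in WT libraries. The groups overlapped fully. The log2 fold change was -0.04 ± 0.21 (edgeR adjusted p = 0.939), and 1.01% of its exon bases overlap GPSM3 on the same strand.

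**Figure D2:**
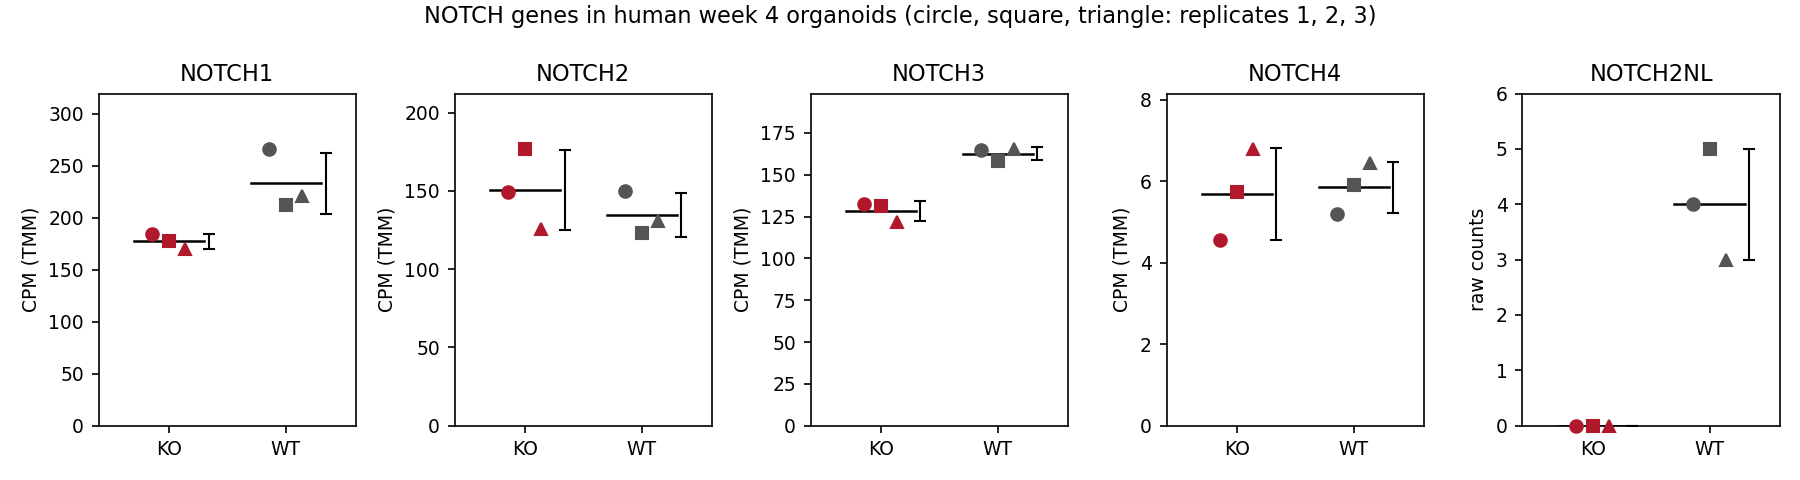
Levels of NOTCH1 to NOTCH4 (CPM with TMM factors) and raw counts of NOTCH2NL in each of 3 KO (red) and 3 WT (grey) libraries of week 4 human organoids, with the mean (line) and SD (bar) of each group. All KO libraries lie below all WT libraries for NOTCH1, NOTCH3 and NOTCH2NL, and the groups overlap for NOTCH2 and NOTCH4.

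To compare levels between genes, CPM was divided by the length of the merged exons, 10.38 kb for NOTCH1, 16.81 kb for NOTCH2, 9.39 kb for NOTCH3, 9.75 kb for NOTCH4 and 6.44 kb for NOTCH2NL. The order was NOTCH1, NOTCH3, NOTCH2, NOTCH4, NOTCH2NL in both groups. The place of NOTCH2NL is uncertain, because 71.8% to 75.4% of its transcript windows also occur in other genes. Reads from such windows may not be counted for it. In KO the levels were 17.1 ± 0.673, 13.7 ± 0.646, 8.96 ± 1.53 and 0.583 ± 0.115 CPM per kb for NOTCH1, NOTCH3, NOTCH2 and NOTCH4, with NOTCH2NL at 0. In WT they were 22.4 ± 2.80, 17.3 ± 0.437, 8.01 ± 0.824, 0.599 ± 0.0644 and, for NOTCH2NL, 0.0395 ± 0.00822 CPM per kb. No 2 neighbours in these orders overlapped between libraries of a group. The merged exons of NOTCH2 are longer than its main transcript, and this affects the place of NOTCH2 in KO. Per kb of the coding transcript, NOTCH3 stood at 14 to 15.3 and NOTCH2 at 11 to 15.5 CPM per kb in KO, so they overlapped there, while in WT NOTCH3 stood at 18.2 to 19.1 and NOTCH2 at 10.8 to 13.2 CPM per kb.

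As a share of the 4 receptor genes, each counted per kb of merged exons, NOTCH2 made up 21.6%, 24.9% and 19.9% in KO, against 17%, 16.2% and 16.5% in WT. All KO shares lay above all WT shares, with means of 22.1 ± 2.54% in KO and 16.5 ± 0.385% in WT (exact permutation test of 3 against 3 libraries, two-sided p = 0.1, the smallest this design allows). NOTCH1 made up 42.4 ± 1.67% in KO and 46.3 ± 2.1% in WT, again without overlap (exact p = 0.1). NOTCH3 made up 34 ± 0.718% in KO and 35.9 ± 2.27% in WT (exact p = 0.3). NOTCH4 made up 1.46 ± 0.368% in KO and 1.25 ± 0.208% in WT (exact p = 0.5). The sum of the 4 receptor genes was 424 to 492 CPM in KO and 499 to 586 CPM in WT, also without overlap (exact permutation p = 0.1). Shares depend on each other, so a lower NOTCH1 or NOTCH3 level by itself raises the NOTCH2 share. The CPM of NOTCH2 overlapped between the groups.

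Ratios of counts within a library do not depend on how libraries are scaled to each other. The log2 ratio of NOTCH1 to NOTCH2 was 0.30, 0.01 and 0.44 in KO, against 0.83, 0.79 and 0.75 in WT. The log2 ratio of NOTCH3 to NOTCH2 was -0.17, -0.43 and -0.05 in KO, against 0.13, 0.36 and 0.34 in WT. Neither pair of groups overlapped, and the WT ratios of NOTCH1 to NOTCH2 lay close together. The differences of KO minus WT were -0.54 and -0.49, each with an exact permutation p of 0.1, the smallest possible with 3 against 3 libraries, and of 0.3 after Benjamini-Hochberg adjustment over the 6 ratios compared in the 2 species. The ratio of NOTCH3 to NOTCH1 averaged -0.46 ± 0.03 in KO and -0.51 ± 0.16 in WT, and the groups overlapped (exact p = 1.0). Without WT replicate 1, whose ratio was the lowest of all at -0.69, the difference between KO and WT was -0.04 in place of 0.05.

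**Figure D3:**
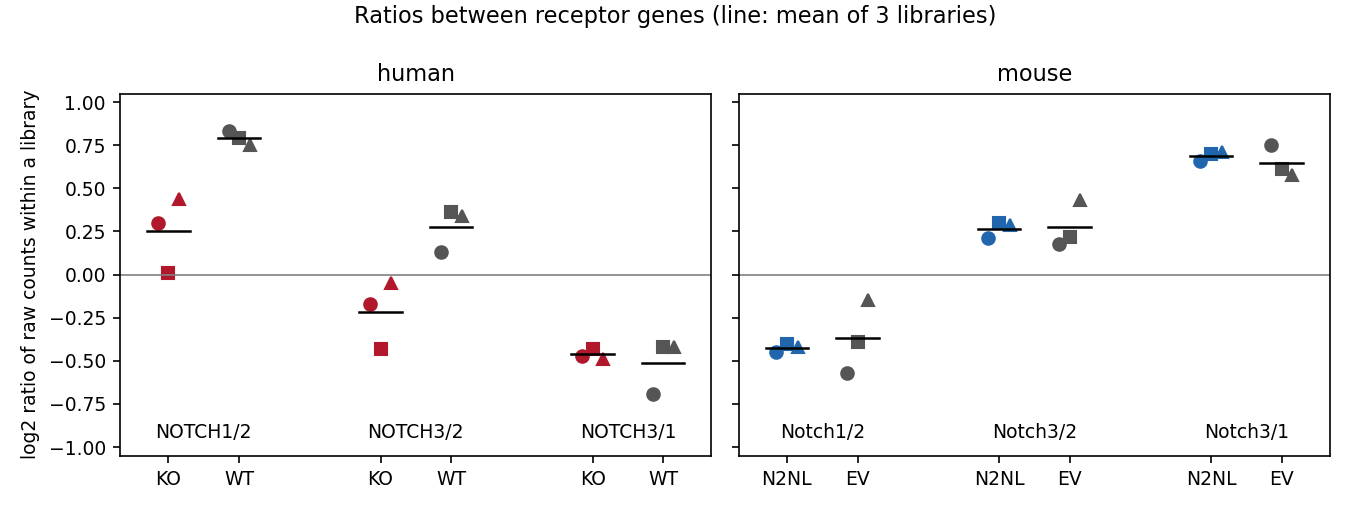
Log2 ratios of raw counts between receptor genes within each library, for KO (red) and WT (grey) human organoids on the left and N2NL (blue) and EV (grey) mouse organoids on the right, with the mean of 3 libraries as a line. Both ratios over NOTCH2 are lower in all KO than in all WT libraries, and the mouse groups overlap in every ratio.

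The rest of the pathway was read through 6 lists. In all, 3 of 53 genes tested were called (5.66%), close to the 5.5% of all genes tested, and 9 (17%) had an unadjusted p under 0.05, where 22.8% of all genes did. The share of called pathway genes is therefore no result about the pathway, and the genes that passed are given as single genes. Of 8 ligand genes and non-canonical ligand genes tested, 0 were called higher and 2 lower in KO, and the median log2 fold change was -0.05, against 0 over all genes tested. JAG2, a Jagged ligand, stood at 8.26, 9.47 and 7.52 CPM in KO, against 12.3, 16.0 and 12.7 CPM in WT. It fell by 0.70 ± 0.17 on the log2 scale (edgeR adjusted p = 0.0423). DLK1, a Delta-like protein that lacks the region by which Delta ligands engage the receptor, stood at 63.0, 52.0 and 69.9 CPM in KO, against 94.8, 108 and 112 CPM in WT. It fell by 0.77 ± 0.12 on the log2 scale (edgeR adjusted p = 0.00597). Both genes were below WT in every KO library. With 5 libraries the JAG2 call was kept only without WT replicate 1 (adjusted p = 0.028) and lost without KO replicate 1, 2 or 3 (0.162, 0.0664 and 0.12) and without WT replicate 2 or 3 (0.134 and 0.123). Among the same fits, the DLK1 call was lost only without WT replicate 3 (adjusted p = 0.0528).

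Among 8 Notch target genes tested, 0 were called higher and 1 lower, with a median log2 fold change of -0.27. HES4, a target gene that mice lack, stood at 44.2, 31.8 and 42.8 CPM in KO, against 63.4, 70.8 and 61.9 CPM in WT. It was below WT in every KO library and fell by 0.72 ± 0.13 on the log2 scale (edgeR adjusted p = 0.0131). Of the 6 fits with 5 libraries, the call was lost only without WT replicate 3 (adjusted p = 0.0616). HES1 and HES5, the main effectors in radial glia, did not pass the test: HES1 stood at 79.4 ± 28.3 CPM in KO and 64.6 ± 10.6 CPM in WT (adjusted p = 0.628). HES5 stood at 58.2 ± 16.6 CPM in KO and 57.1 ± 21.9 CPM in WT (adjusted p = 0.975).

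In the 4 lists between ligand and target, 0 genes were called in KO. Of 5 genes of receptor glycosylation, such as the Fringe enzymes, 1 had an unadjusted p under 0.05, as did 1 of 9 of receptor cleavage. The same held for 2 of 12 genes of receptor or ligand trafficking and turnover, and for 1 of 11 of the nuclear complex. The median log2 fold changes of these lists, in that order, were 0, -0.07, -0.10 and 0.04. The nearest to the threshold were NUMBL, a Numb-like regulator of the receptor (48.5 ± 1.90 CPM in KO, 62.1 ± 5.30 CPM in WT; edgeR adjusted p = 0.057), and CREBBP, an acetyltransferase co-activator (152 ± 6.88 CPM in KO, 124 ± 2.45 CPM in WT; edgeR adjusted p = 0.0592). These 2 were picked after their values were seen.

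In mouse, all 4 receptor genes had higher mean levels in N2NL than in EV, and none passed the test. Of the 4, 0 were called (edgeR quasi-likelihood test, adjusted p under 0.05), where 0.012% of the 16682 genes tested were called. At an unadjusted p under 0.05 there were 3 of 4, all higher in N2NL, where 5.11% of the genes tested were higher at that level. DESeq2 on the same counts also called 0 of 4. The authors' deposited table has an adjusted p of 0.0198 for Notch2, 0.0534 for Notch3, 0.267 for Notch1 and 0.92 for Notch4.

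Notch2 had the clearest separation. It stood at 139, 154 and 150 CPM in N2NL, against 121, 120 and 121 CPM in EV. The groups did not overlap, which held for 12.7% of the genes tested, and the EV libraries lay close together. The means were 148 ± 7.49 CPM in N2NL and 121 ± 0.581 CPM in EV, a log2 fold change of 0.29 ± 0.07 (unadjusted p = 0.000679; edgeR adjusted p = 0.241). Without the filter on low counts the adjusted p was 0.0442, and over the 12 alternatives it ran from 0.0442 to 1.0. Human NOTCH2NL resembles the start of NOTCH2, and whether transgene reads were counted under mouse Notch2 was not tested. Among the N2NL libraries, replicate 1 had the highest NOTCH2NL value and the lowest Notch2 value. The same library was also the lowest of the N2NL group for Notch1 (102 CPM), Notch3 (162 CPM) and Notch4 (5.43 CPM). The order of these libraries therefore does not bear on where transgene reads were counted.

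Notch3 stood at 162, 189 and 184 CPM in N2NL, against 137, 140 and 163 CPM in EV. N2NL replicate 1 lay just below EV replicate 3, and the other N2NL libraries lay above all EV libraries. The means were 178 ± 14.6 CPM in N2NL and 147 ± 14 CPM in EV (log2 fold change 0.28 ± 0.08, edgeR adjusted p = 0.456). Notch1 stood at 102, 117 and 112 CPM in N2NL, against 81.8, 91.8 and 109 CPM in EV. Its groups overlapped too, through N2NL replicate 1 and EV replicate 3. The means were 110 ± 7.39 CPM in N2NL and 94.0 ± 13.5 CPM in EV (log2 fold change 0.23 ± 0.10, edgeR adjusted p = 0.645).

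Notch4 stood at 5.43, 7.25 and 6.80 CPM in N2NL, against 4.67, 5.97 and 6.31 CPM in EV. The groups overlapped (log2 fold change 0.19 ± 0.18, edgeR adjusted p = 0.872). The sum of the 4 receptor genes was 409 to 467 CPM in N2NL and 345 to 398 CPM in EV, without overlap (exact permutation p = 0.1, the smallest possible). The ratios between the receptor genes overlapped between the groups. The log2 ratio of Notch1 to Notch2 averaged -0.42 ± 0.02 in N2NL and -0.37 ± 0.21 in EV (exact p = 0.7). That of Notch3 to Notch2 averaged 0.27 ± 0.05 in N2NL and 0.28 ± 0.14 in EV (exact p = 0.9). That of Notch3 to Notch1 averaged 0.69 ± 0.03 in N2NL and 0.65 ± 0.09 in EV (exact p = 0.4). No mouse gene lengths were used here, so the mouse genes are not ranked by level.

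**Figure D4:**
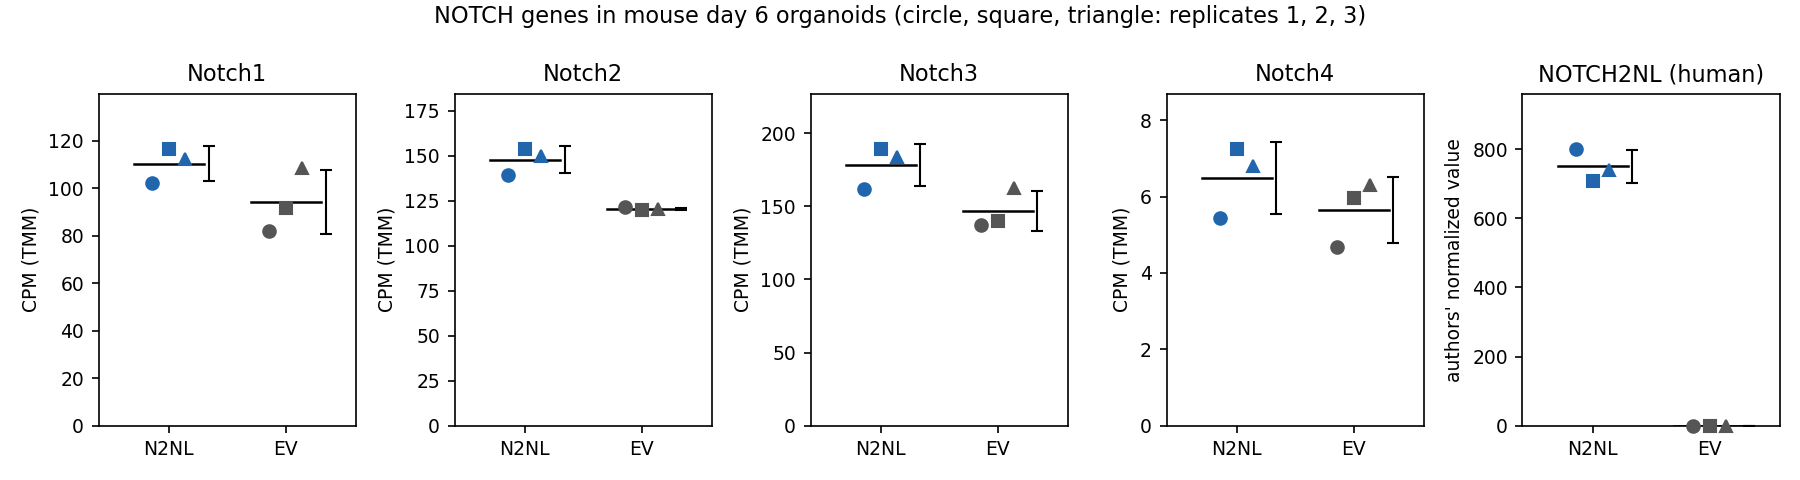
Levels of Notch1 to Notch4 (CPM with TMM factors) and the authors' normalized value of human NOTCH2NL in each of 3 N2NL (blue) and 3 EV (grey) libraries of day 6 mouse organoids, with the mean (line) and SD (bar) of each group. NOTCH2NL and Notch2 are higher in all N2NL than in all EV libraries, and the groups overlap for Notch1, Notch3 and Notch4.

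Marker levels were read in the same libraries. Cortical markers summed to 561 to 599 CPM in N2NL and 502 to 510 CPM in EV. Of these 7, 6 had a log2 fold change above 0, and Otx2 was lower (132 ± 12.6 CPM in N2NL, 151 ± 15.6 CPM in EV). Neuron markers summed to 522 to 566 CPM in N2NL and 592 to 735 CPM in EV, and all 8 had a log2 fold change below 0. The largest part of that sum was Tubb3 (307 ± 16.7 CPM in N2NL, 384 ± 57.2 CPM in EV). All 7 pluripotency markers had a log2 fold change above 0. Radial glia markers summed to 1961 to 2285 CPM in N2NL and 2105 to 2174 CPM in EV, and so overlapped. None of these markers passed the adjusted test, and their part in the receptor values was not tested.

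No gene of the 6 pathway lists was called in mouse (edgeR quasi-likelihood test, adjusted p under 0.05), and 6 of the 50 tested had an unadjusted p under 0.05, where 7.45% of all genes tested did. These were Dll1, Dlk1, Rfng, Ep300, Spen and Hey2. Without the filter on low counts Dlk1 was called, and it stood at 38.0 ± 2.93 CPM in N2NL and 29.4 ± 3.62 CPM in EV. Of the 50, 33 had a log2 fold change above 0, where 48.3% of all genes tested did. By list these were 4 of 7 ligand genes, 3 of 5 glycosylation genes, 4 of 9 cleavage genes, 11 of 12 trafficking and turnover genes, 9 of 11 nuclear complex genes and 2 of 6 target genes. The targets Hes1 and Hes5 stood at 45.6 ± 3.95 and 65.3 ± 3.79 CPM in N2NL and at 41.6 ± 1.67 and 63.1 ± 6.36 CPM in EV (edgeR adjusted p = 0.81 and 0.944).

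**Figure D5:**
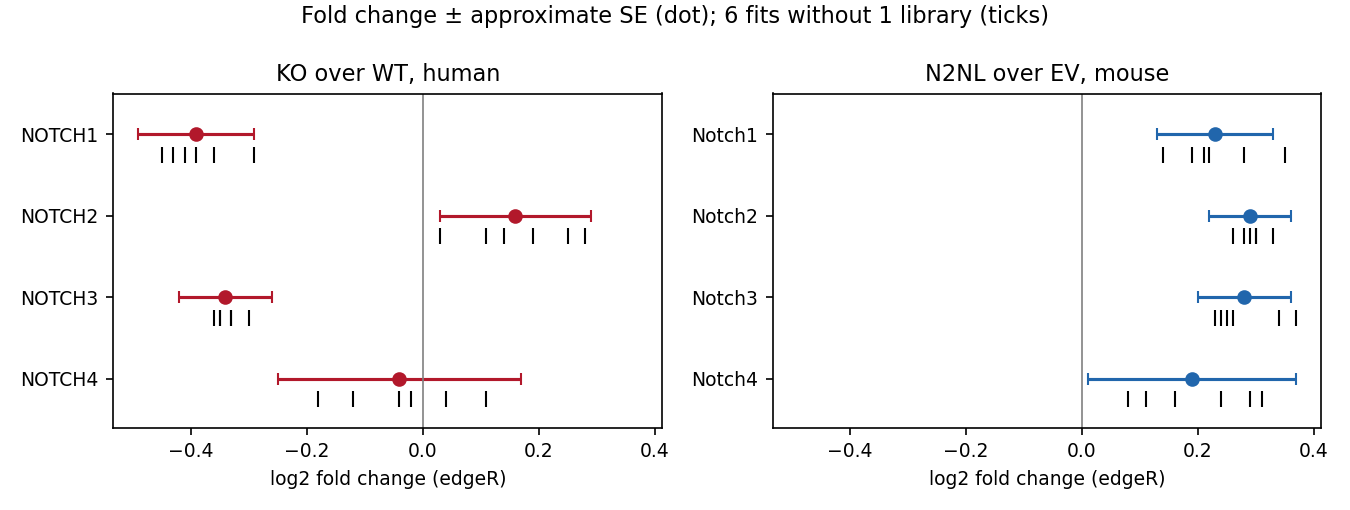
Log2 fold change of each receptor gene with its approximate SE (dot and bar) in KO over WT human organoids on the left and N2NL over EV mouse organoids on the right, and the log2 fold change in each of the 6 fits without 1 library (ticks). NOTCH1 and NOTCH3 stay below 0 and Notch1 to Notch4 above 0 in all 6 fits, and NOTCH4 crosses 0.

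The genes whose levels followed each receptor gene most closely over the 6 libraries of a species were found by the root mean square difference of centred log2 CPM among 10692 human and 10538 mouse genes of at least 10 CPM. For NOTCH1 they were HECA (0.016), LRRC20 (0.019) and DNAJC10 (0.036). For NOTCH2 they were ZBTB7A (0.030), RAP1B (0.036) and TIMP2 (0.040). For NOTCH3 they were TMTC4 (0.020), ZNF516 (0.024) and RPL15 (0.030). NOTCH1 and NOTCH3 were thus not among each other's nearest genes. In mouse, the nearest to Notch1 were the genes described as BTB (POZ) domain containing 11 (0.026), zinc finger protein 385A (0.027) and low density lipoprotein receptor-related protein 1 (0.029). The nearest to Notch2 were xylosyltransferase 1 (0.020), neural precursor cell expressed, developmentally down-regulated gene 9 (0.024) and La ribonucleoprotein domain family, member 1 (0.026). The nearest to Notch3 were SEC16 homolog A (0.023), Kruppel-like factor 9 (0.025) and WD and tetratricopeptide repeats 1 (0.025). Over so few libraries these values describe likeness and carry no test.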

How the data were processed

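Polyadenylated RNA was sequenced from strand-specific libraries, per the labels' protocols. The authors deposited raw counts per Ensembl gene and tables of their own comparison, whose columns, per the file headers, are a normalized score for each library (rounded to whole numbers), log2 fold changes and p-values. Tools named in the submitters' processing notes, without roles, are HTSeq 0.6.1p1, STAR 2.4.0, DESeq2 2.11.39, Trimmomatic 0.36 and Bowtie2 2.3.3.1, and the builds are GRCh38 and GRCm38. The sources used here do not give the strand setting of counting. In the authors' human table the normalized columns of replicates 1 and 3 are exchanged within each group relative to the raw counts, so human levels were taken from the raw counts. The mouse NOTCH2NL row was found in the normalized table only.

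Counts were fitted over all genes of a species with edgeR 4.0.16 in R 4.3.3: filterByExpr, TMM factors, robust quasi-likelihood F test of the group, Benjamini-Hochberg adjustment, threshold 0.05. The approximate SE was taken as the log2 fold over the root of F. With a floor of 3 counts, an undetected gene could be at up to 0.199 CPM in a human library and 0.178 CPM in a mouse library. Mouse summary lines that name no gene (26.6% to 33.7% of reads not uniquely aligned, 5.77% to 6.5% outside genes) were left out. The script was tested on simulated counts drawn with the same spread setting for every gene. That test does not show how often changes are found in these data.

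Ratios, shares and sums were compared by exact permutation tests. Alternatives were RLE factors, library size alone, no filter, a replicate block, DESeq2 1.42.0, limma 3.58.1 (voom) and leaving out each library. Same-numbered libraries deviated together by correlations of 0.22, -0.11 and 0.13 in human and 0.14, 0.02 and 0.00 in mouse, so the numbers were not taken to pair them. Every member is named, as is every pathway gene past the threshold, and for likeness the 3 nearest genes to each member with at least 10 CPM. The members and lists were chosen with earlier results of these data known. Coordinates, exon lengths and transcripts came from GENCODE 29 and upstream sequences from RefSeq.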

Additional observations from a re-analysis of the deposited data

How the results depend on the processing

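The human fit called 932 genes. Fits on 5 of the 6 libraries called 224 (without WT replicate 3) to 1440 (without WT replicate 1). Without the filter on low counts it called 2155. The mouse fit called 2, with 0 to 17 on 5 libraries, 117 without the filter, 30 with DESeq2 and 1 with limma-voom. In the 6 pathway lists, the human fit called 3 genes, with 0 (without WT replicate 3) to 4 on 5 libraries and 7 without the filter, and the mouse fit called 0, and 1 without the filter.

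NOTCH1 was at -0.37 (log2) with library size alone and -0.39 with limma-voom, with adjusted p of 0.0608 and 0.0574, and was then not called. On 5 libraries it lay between -0.45 and -0.29, and NOTCH3 between -0.36 and -0.30. Mouse Notch2 was called at 0.30 without the filter. NOTCH4, called in no fit, lay between -0.18 and 0.11 on 5 libraries. The cause of these shifts was not tested. Fits without 1 library hold fewer samples, and the human fit without WT replicate 1 called more genes (1440) than the main fit (932).

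With the replicate block, NOTCH3 was at -0.34 with an adjusted p of 0.0518, NOTCH1 kept its call, and the mouse fit called 21 genes. Samples share only a number, so no pairing is inferred.

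On 5 libraries, the difference in the log2 ratio of NOTCH3 to NOTCH1 lay between -0.04 and 0.09, that of mouse Notch1 to Notch2 between -0.15 and 0.06, and that of mouse Notch3 to Notch2 between -0.06 and 0.07. The log2 level of NOTCH1 over NOTCH3 in KO was 0.32 per kb of merged exons, 0.46 without division by length and 0.36 per kb of coding transcript, a scale chosen after seeing the data. That of NOTCH3 over NOTCH2 was 0.62 in KO and 1.12 in WT per kb of merged exons, -0.22 in KO and 0.28 in WT without division by length, and 0.18 in KO and 0.67 in WT per kb of coding transcript.

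Human NOTCH2NL rests on 12 counts, and NOTCH4 on 70 to 111 per library in human and 86 to 129 in mouse. The mouse NOTCH2NL value has no alternative, since its raw counts were not used here.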
